A study of Mus musculus with 6 samples.

Results

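Dpy30 and the non-catalytic subunits of the COMPASS histone methyltransferases were followed in dorsal pancreas of mouse embryos in which Dpy30 had been deleted. The genes are Dpy30, the other core subunits Ash2l, Wdr5 and Rbbp5, and the accessory subunits Cxxc1, Men1, Wdr82, Ncoa6, Paxip1 and Pagr1a. They were chosen by symbol for their place in these complexes, and 8 of the 10 were found among the 14681 genes read here. The expression of Ash2l and Wdr5 was not analysed here. The study took dorsal pancreas from 3 control and 3 knockout C57BL/6 embryos at embryonic day 18.5. The knockout is written Dpy30∆P in the labels. The sources used here do not give the promoter or Cre line that drives the deletion, the alleles, or what the control embryos carried; the name of the deposited table refers to Pdx1. RNA was measured by sequencing of ribosome-depleted, stranded libraries made from small amounts of whole tissue.

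COMPASS complexes place methyl groups on histone H3 at lysine K4 (H3K4), a mark of active promoters and enhancers. Each complex holds 1 catalytic subunit of the KMT2 or SETD1 family, bound to a shared core called WRAD after WDR5, RBBP5, ASH2L and DPY30; DPY30 attaches through ASH2L. Accessory subunits differ between complexes: CXXC1 and WDR82 go with the SETD1 enzymes, menin (the product of Men1) with KMT2A and KMT2B, and NCOA6, PAXIP1 and PAGR1 with KMT2C and KMT2D. In the pancreas, menin is best known as a tumour suppressor of endocrine cells.

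The values come from the authors' deposited table of DESeq2 results, which gives each gene 1 mean normalized count over all libraries, 1 log2 fold change between the groups, and its p. No value of a single library could be shown, so the levels in control and in knockout, their spread, and the overlap of the groups were not examined. The table does not state which group is the numerator. Signs are therefore given as deposited: negative means lower in the knockout if the ratio is knockout over control, and every sign would turn if it is the reverse. The depth of each library is unknown; the mean counts of all genes sum to 3663175. Per the labels, the tissue came from 3 embryos per group; whether each embryo made 1 library is not spelled out, and the p-values reflect the spread among these 6 samples. In whole tissue, fewer cells of a type and less RNA per cell cannot be told apart.

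The promoter sequences show how differently the starts of these genes are built. They are shown for Dpy30 because its annotated starts are of 2 kinds, and for Wdr82 because its count per kilobase of transcript is the highest after that of Cxxc1. RefSeq sequence (GRCm38.p6) was read for 8 of the 10 genes. These include Wdr5, and the starts of Ash2l and Cxxc1 were not analysed here, so they are not the same 8 as in the comparison of expression. The outer start of Dpy30 lies 7511 bases before the next of its 4 annotated starts, on the minus strand of chromosome 17. The sequences run 5′ to 3′ towards the start. Bases annotated as exon were left out, 30 at the inner Dpy30 start and 1 at that of Wdr82, so these sequences stop short of the start. Capitals mark CpG dinucleotides, the letters that the CXXC1 protein binds when unmethylated.
Dpy30, outer start, chr17:74323945-74324194, minus strand: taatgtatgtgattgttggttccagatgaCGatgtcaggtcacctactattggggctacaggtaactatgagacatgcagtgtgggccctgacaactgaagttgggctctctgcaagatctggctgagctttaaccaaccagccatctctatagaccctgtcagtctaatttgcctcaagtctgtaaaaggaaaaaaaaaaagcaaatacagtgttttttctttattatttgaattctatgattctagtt
Dpy30, inner start, chr17:74316464-74316683, minus strand: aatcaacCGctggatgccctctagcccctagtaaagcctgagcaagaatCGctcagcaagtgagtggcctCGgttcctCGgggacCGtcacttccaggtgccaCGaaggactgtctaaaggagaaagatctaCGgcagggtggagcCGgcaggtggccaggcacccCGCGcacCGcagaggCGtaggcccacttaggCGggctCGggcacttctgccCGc
Wdr82, chr9:106170679-106170927, plus strand: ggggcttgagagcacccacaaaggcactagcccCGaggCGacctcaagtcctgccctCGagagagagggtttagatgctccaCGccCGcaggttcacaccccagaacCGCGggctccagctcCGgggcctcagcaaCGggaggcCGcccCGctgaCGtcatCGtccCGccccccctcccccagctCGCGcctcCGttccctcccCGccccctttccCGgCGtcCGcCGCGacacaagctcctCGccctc

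In the 250 bases before each start, Dpy30 had 1 CpG at its outer start and 21, 28 and 34 at its 3 inner starts, whose windows overlap. The inner start shown above is the one with 21, of which the printed part holds 15. The median was 6 CpG over 32851 annotated starts of all genes and 14 over the 14594 starts of genes in the table. The outer start of Dpy30 is thus CpG-poor and its inner starts are CpG-rich. Wdr82 had 24 CpG and Paxip1 had 22. Wdr5 had 12, Rbbp5 had 10, Pagr1a had 8, the 3 starts of Men1 had from 8 to 10, and the start of Ncoa6 used here had 1. That start, at 155440783, lies inside Ncoa6, which runs from 155390656 to 155473894 on the minus strand. The sequence before the outer end of Ncoa6 was not examined. Of 2 motifs searched on both strands, the GC box GGGCGG was found before a start of 4 of the 8 genes (Men1, Paxip1, Wdr5 and Wdr82), and before 53.3% of the starts of genes in the table. The ETS motif CCGGAAG was found in none of the 8 genes, and before 11.5% of those starts. Each motif holds 1 CpG, which is also counted above. A match is a description of the letters only. The deposited values are per gene, so which start was used in these embryos was not examined.

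Dpy30 RNA was scarce by count but not per length. Dpy30 (Entrez gene 66310; chromosome 17, 74299474 to 74323944, GRCm38, minus strand) had a mean normalized count of 29.4, which is higher than in 33.3% of genes in the table. Its annotated coding transcripts are short, with a median of 694 bases and a range from 512 to 789. Per kilobase of transcript its level was 42.3, above the median of 27.7 over the 13589 genes with a length and at the 62nd percentile. The low count therefore goes with a short transcript. Its mean also covers the knockout samples, and how far the deletion lowers it was not tested. In the comparison below, precision tends to be lower at low counts, though genes of like count also differ in it.

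On the same scale of mean normalized count per kilobase, Cxxc1 was the most abundant of the 8 genes, at 167. Cxxc1 encodes the CpG-binding subunit that brings the SETD1 enzymes to unmethylated CpG islands; its mean count was 437. Wdr82, the WD40-repeat subunit that ties SETD1 enzymes to RNA polymerase II, had 70.2 per kilobase. Rbbp5, the core subunit that joins ASH2L to the catalytic SET domain, had 65.3. Men1 had 58.9 and Pagr1a had 48.0 per kilobase. Below Dpy30 came Ncoa6, the nuclear receptor coactivator of the KMT2C and KMT2D complexes, at 25.7, and Paxip1, their BRCT-repeat subunit, at 11.7. Ncoa6 and Paxip1 were the members below the median of all genes when each gene's median transcript length was used. From the longest to the shortest annotated transcript, the level ran from 24.9 to 74.3 for Ncoa6 and from 52.5 to 529 for Men1, so their places in this order depend on the transcript. Since each level is 1 mean over all 6 libraries with no error, which neighbours in this order differ could not be tested.

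**Figure D1:**
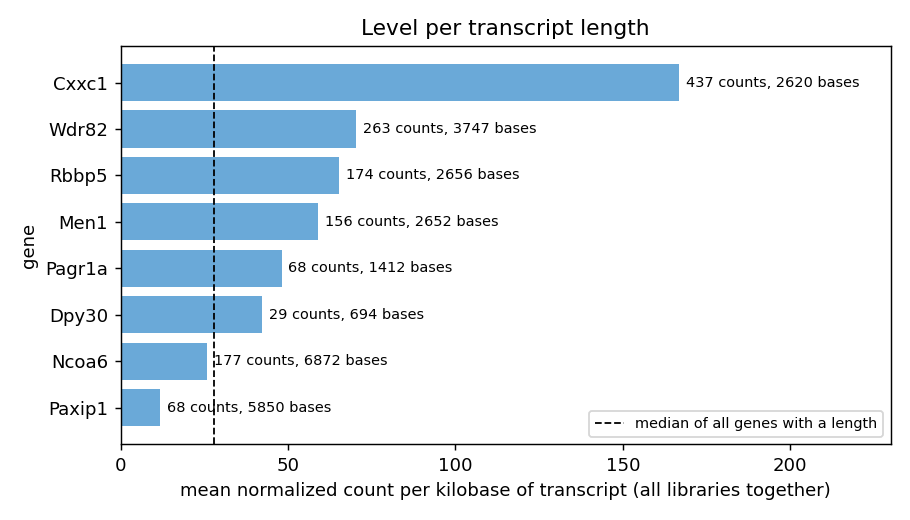
Mean normalized count per kilobase of annotated coding transcript (x axis) for the 8 genes (y axis), with the mean count and the median transcript length beside each bar; the dashed line is the median over all genes with a length. Cxxc1 stands highest at 167, Dpy30 is at 42.3 and Paxip1 lowest at 11.7; each bar is 1 mean over both groups, with no error.

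Some of these genes share sequence with other annotated genes, which may bear on how reads were assigned. Of the stretches of 31 bases in annotated Pagr1a transcripts, 93.2% also occur in transcripts of other genes, nearly all of them in coding transcripts of Gm42742. The value of Pagr1a may be uncertain for this reason. The deposited table gives Pagr1a a UCSC identifier, but the sources used here name no annotation release, and the sharing was read in GENCODE M21. Whether the sharing affected that value was not tested. For Rbbp5 the share was 12.1%, all with Gm11977, and for Dpy30 it was 3.74%, all with Gm2059. For Paxip1 it was 2.89%, spread over 1240 genes, and for Ncoa6 0.283%. Cxxc1, Men1 and Wdr82 shared none. Rows for Gm42742, Gm11977 and Gm2059 were not found among the genes read here.

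The comparison of knockout with control called no member. Of the 8 genes, 0 had an adjusted p under 0.05 by the DESeq2 test of the authors, and 0 were under 0.05 before adjustment. Over all genes, the authors' test called 0.743% of the 12108 with an adjusted p (0.479% with a negative and 0.264% with a positive sign), and 5.39% of the 14386 with a p were under 0.05 before adjustment. At these rates, less than 1 call would fall among 8 genes, so a count of 0 is near the background and is not a result about the members. The deposited signs were even, 4 negative and 4 positive, against 45.2% negative among all genes with a p. Centred on pan-epithelial markers, which adds 0.62 to every unshrunken log2 value, 1 of the 8 was negative. The share of all genes that is negative after this shift was not computed. The shift is a mean over 11 pan-epithelial markers with an SE of at most 1, weighted by precision. Krt18, the only called marker of that list, weighs most, at -1.23 ± 0.28 (SE), so the turned signs depend much on it.

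Fold changes in the authors' deposited table were shrunken towards 0, and those of the 8 genes ran from -0.15 (Cxxc1) to 0.03 (Rbbp5). A shrunken value near 0 says little about a gene with few reads. The shrinkage was therefore removed by assuming a Cauchy prior of 1 common scale and a quadratic likelihood, which gives an unshrunken log2 fold change and its standard error (SE). For each of the 8 genes the result returned the deposited p to within 0.1 in z units. All 8 intervals of 95% spanned 0. The median of the 8 unshrunken values was 0.20, beside 0.05 over the 12135 genes with such a match. Without Dpy30 and Paxip1, whose SE is above 1, the median of the other 6 was -0.15, so the sign of the median is not settled.

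Dpy30, the targeted gene, had an unshrunken log2 value of 0.51 ± 1.67 (SE); the 95% interval ran from -2.77 to 3.78. In the authors' deposited table its shrunken value was 0.01 ± 0.22 (posterior SD; adjusted p = 1.00 in the DESeq2 test). On the linear scale the interval runs from 0.147-fold to 13.8-fold. It holds no change, a halving and a several-fold fall alike, so the loss of Dpy30 RNA in the knockout was neither seen nor bounded tightly here, and Dpy30 does not check the labels. An estimate of at least 3.28 on the log2 scale, in either direction, would have been needed for an unadjusted p of 0.05. This imprecision is usual at its depth: among the 100 genes with a matched value nearest to Dpy30 in mean count, the median SE was 2.02 and only 17 had a smaller SE than Dpy30.

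Rbbp5, the other core subunit analysed, was at 0.55 ± 0.91 (SE) on the unshrunken log2 scale, and its 95% interval ran from -1.24 to 2.34. It did not pass (adjusted p = 1.00 in the authors' DESeq2 test). Its SE was larger than that of 91 of the 100 genes nearest in mean count, for which the median SE was 0.70. The core subunit was thus measured less precisely than its mean count of 174 would give in most genes.

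The subunits of the SETD1 complexes had negative signs, that of Wdr82 turning positive (0.44) when centred on pan-epithelial markers. Cxxc1 (Entrez gene 74322; chromosome 18, 74216124 to 74221496, GRCm38) had the smallest p of the 8 genes, 0.133 before adjustment (adjusted p = 0.989 in the authors' DESeq2 test), and 1826 other genes in the table had a smaller one. Unshrunken, it was at -0.72 ± 0.48 (SE), and its 95% interval ran from -1.66 to 0.22; centred on pan-epithelial markers it was at -0.10, and with a prior scale 20% smaller or 25% larger at -1.16 or -0.41. The interval is the narrowest of the 8, and it excludes a doubling but not a halving as deposited, or a halving but not a doubling if the ratio is turned. Wdr82 was at -0.18 ± 0.67 (SE), and its interval from -1.49 to 1.13 excludes neither.

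Men1, the KMT2A and KMT2B subunit, was at -0.50 ± 0.75 (SE), and its 95% interval ran from -1.97 to 0.96; centred on pan-epithelial markers it was at 0.12. Like that of Cxxc1, the interval excludes a doubling as deposited. Of 4 menin target genes listed, 3 were in the table and 0 were called, beside 0.743% over all genes. Cdkn2c, which encodes the cell cycle inhibitor p18, had a p of 0.00557 before and 0.310 after adjustment over all genes in the authors' DESeq2 test. Its deposited sign was positive, its mean count was 49.4, and its unshrunken size could not be determined because the reconstruction missed the deposited p by 0.65 in z units. Cdkn1b, the related inhibitor p27, was at 0.39 ± 0.99 (SE) and Meis1, a homeobox factor, at 0.10 ± 0.54 (SE).

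Among the KMT2C and KMT2D subunits, Ncoa6 was at -0.11 ± 0.68 (SE), or 0.51 when centred on pan-epithelial markers, and its 95% interval ran from -1.45 to 1.23. Pagr1a was at 0.58 ± 0.99 (SE), with an interval from -1.36 to 2.51, subject to the sequence it shares with Gm42742. For Paxip1 the unshrunken value was 1.56 ± 3.78 (SE), with an interval from -5.84 to 8.96 that leaves its size undetermined. Paxip1 and Pagr1a had almost the same mean count, 68.3 and 67.8, yet their standard errors differed several-fold. All of the 100 genes nearest to Paxip1 in mean count had a smaller SE, with a median of 1.34, whereas 7 of the 100 nearest to Pagr1a did. Paxip1 therefore stands out for its lack of precision and not for a difference between the groups.

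**Figure D2:**
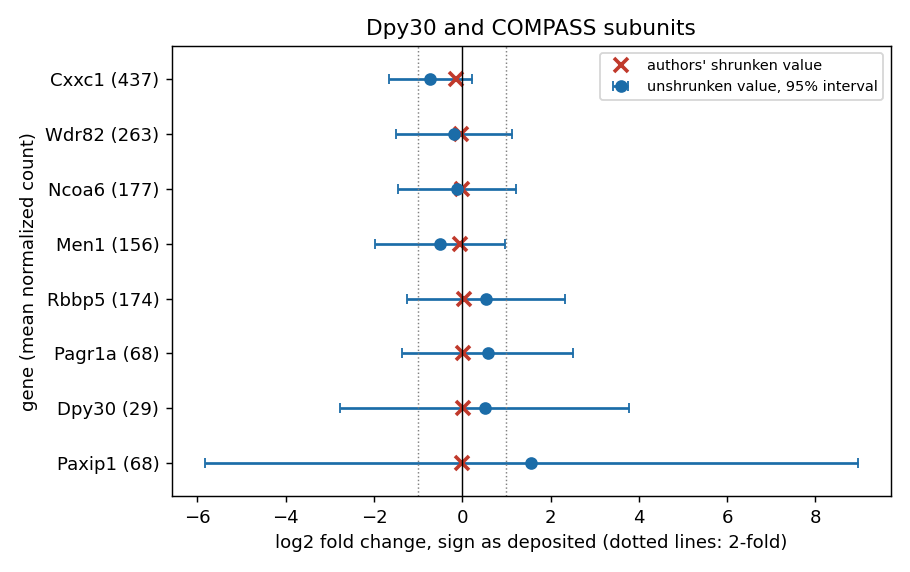
The x axis gives log2 fold changes with their deposited sign for the 8 genes (y axis, mean normalized count in brackets). Circles are unshrunken values with 95% intervals, crosses are the authors' shrunken values, and dotted lines mark a 2-fold change. All 8 intervals cross 0; the narrowest is that of Cxxc1, from -1.66 to 0.22, and the widest that of Paxip1, from -5.84 to 8.96.

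As deposited, 0 of the 8 intervals excluded a halving and 2 excluded a doubling; with the ratio turned, 2 would exclude a halving and 0 a doubling. Which intervals exclude a 2-fold change depends also on where the estimates fell. By SE alone, an estimate of 0.94 on the log2 scale would have reached an unadjusted p of 0.05 for Cxxc1. Every other member needed at least 1.31, the value for Wdr82, so more than a 2-fold estimate. Calls were made elsewhere at mean counts like that of Dpy30: of 1681 genes with an adjusted p and a mean count from 20 up to 40, the authors' test called 1.37%.

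**Figure D3:**
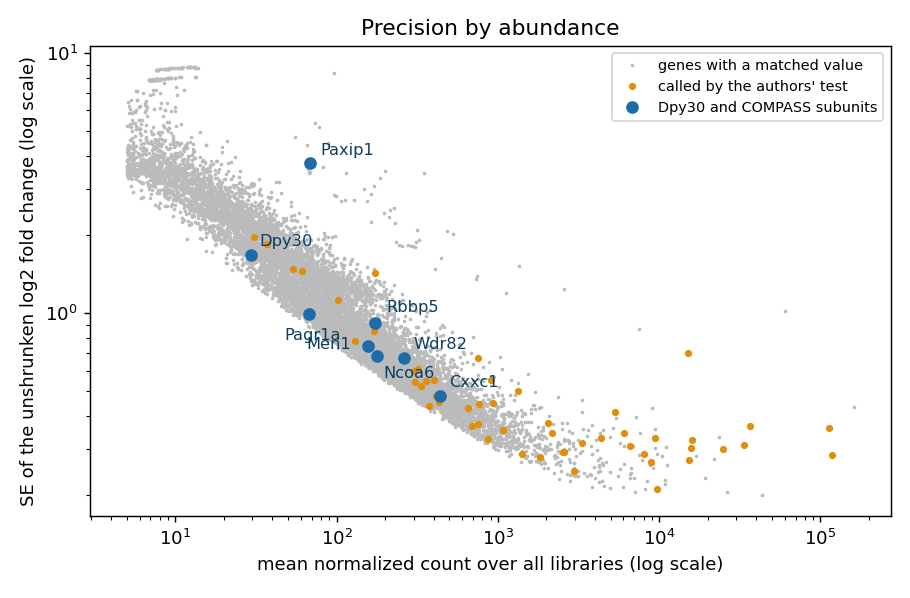
Standard error of the unshrunken log2 fold change (y axis, log scale) against mean normalized count (x axis, log scale) for genes with a matched value and a mean count of at least 5; orange points were called by the authors' test. Dpy30 lies among genes of its count with an SE of 1.67, while Paxip1 lies above all 100 of its nearest neighbours at 3.78.

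The catalytic subunits had mean counts of up to 1297 (Kmt2d) and smaller standard errors than most members. Of Kmt2a, Kmt2b, Kmt2c, Kmt2d, Setd1a, Setd1b and the demethylase Kdm6a, 6 were in the table and Setd1a was not analysed here. None was called (0 of 6 in the authors' DESeq2 test, 0 under 0.05 before adjustment), beside 0.743% and 5.39% over all genes. Both counts are near this background and are not results about these genes. Signs were negative for 4 (1, Kdm6a, when centred on pan-epithelial markers). As deposited, all 6 intervals excluded a doubling and 3 a halving, counts that change places if the ratio is turned. The median of the 6 unshrunken values was -0.28. Kmt2c and Kmt2d, the main enhancer H3K4 monomethyltransferases, were at -0.37 ± 0.32 (SE) and -0.23 ± 0.41 (SE). Kmt2a was at -0.33 ± 0.33 (SE) and Kmt2b at 0.01 ± 0.49 (SE), so the enzymes that bind menin had intervals from -0.98 to 0.32 and from -0.94 to 0.97. For both and for Setd1b, at 0.12 ± 0.39 (SE), the interval also excluded a halving. Kdm6a, an H3K27 demethylase of the KMT2C and KMT2D complexes, was at -0.95 ± 0.66 (SE), with an interval from -2.24 to 0.34.

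Proteins that work beside COMPASS gave the same count. Over 8 lists with 66 genes, the catalytic subunits included, 59 were in the table, 58 had an adjusted p, and 0 were called by the authors' DESeq2 test. That test called 0.743% of all genes, so this count is near the background. At an unadjusted p under 0.05 there was 1, Cdkn2c, which is 1 of the 58 with a p against the background of 5.39%. Signs were 31 negative and 28 positive as deposited. Over the 57 genes with a match the median unshrunken value was -0.04, and 7 were negative when centred on pan-epithelial markers.

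In the 6 lists other than the catalytic subunits and the menin targets, described above, the smallest p belonged to the following genes, none of which passed (adjusted p from 0.810 to 1.00 in the authors' DESeq2 test). Ctr9, a PAF1 complex subunit from the list of H2B ubiquitination and transcription elongation factors that act before H3K4 methylation, was at 1.39 ± 0.73 (SE). Akap8, a nuclear anchoring protein that binds DPY30, was at -0.80 ± 0.43 (SE). Kdm5a, a demethylase that removes H3K4 methylation, was at 1.10 ± 0.61 (SE).

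Complexes that share a subunit with COMPASS were alike in this respect. Kansl3, of the NSL acetyltransferase complex that shares WDR5, was at 1.21 ± 0.75 (SE). Its list, which also holds the ATAC acetyltransferase complex, had 16 genes in the table, split into 8 negative and 8 positive. Ppp1r10, of the phosphatase complex that shares WDR82, was at -0.64 ± 0.47 (SE). In its list, which joins that complex with Zc3h4, 5 of 6 genes had negative signs as deposited, 1 when centred on pan-epithelial markers. In the separate list of H3K4 methylation readers, Phf8, a demethylase that reads H3K4 trimethylation, was at -1.37 ± 0.95 (SE).

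Tissue markers show what the same libraries could resolve. Acinar markers were present at high counts (Ctrb1, chymotrypsinogen B, had a mean of 161670), as were endocrine ones (Ins2, insulin, 5335), as the tissue label would have it. Of 8 acinar markers with an adjusted p, 7 were called and all 7 were negative; of 7 endocrine markers, 4 were called and all 4 were negative. Pan-epithelial markers had 13 of 15 signs negative, 1 called, and a median unshrunken value of -0.63, while mesenchyme markers had 10 of 10 signs positive, 0 called, and a median of 0.53. All 8 liver markers, all 6 leukocyte markers and all 4 erythroid markers in the table had positive signs, with 0, 0 and 1 called. Endothelial markers had 4 of 6 positive and neural markers 3 of 6. The part of this mix of epithelium and other tissue in the values of the members was not tested.

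**Figure D4:**
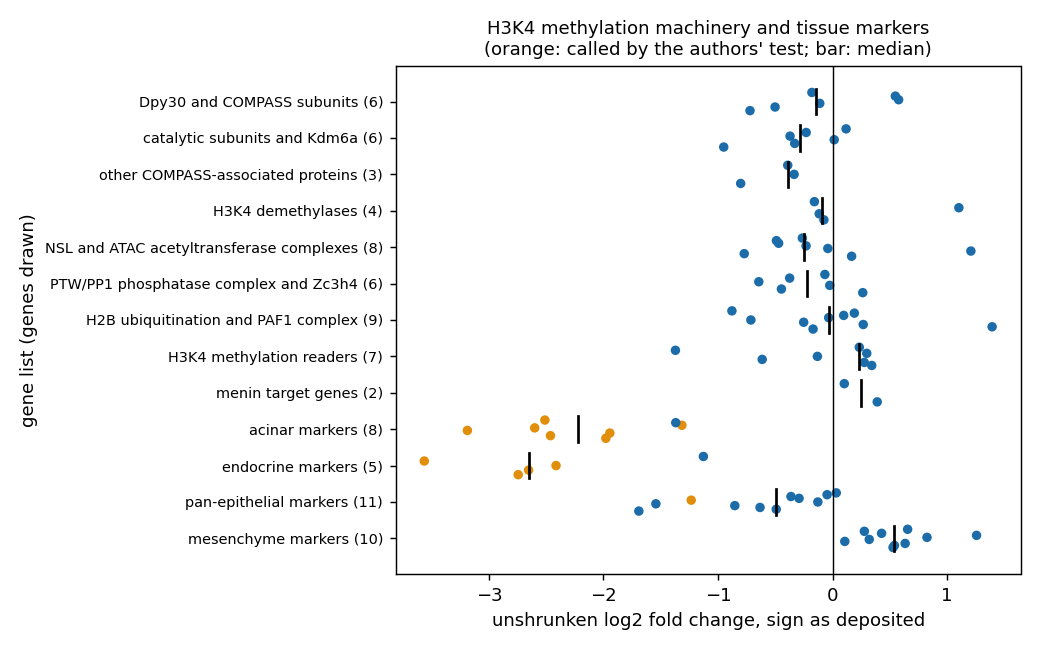
Unshrunken log2 values (x axis, deposited sign) of genes with a matched value and an SE of at most 1, by gene list (y axis, number drawn in brackets); each point is 1 gene, orange points were called by the authors' test and bars are medians. Points of the H3K4 methylation machinery scatter on both sides of 0, with a median of -0.28 for the catalytic subunits. Acinar and endocrine markers lie to the left, and mesenchyme markers to the right with a median of 0.53. Dpy30 and Paxip1 exceed this SE and are not drawn, and the 6 members drawn have a median of -0.15.

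The genes around Dpy30 give the local context of the deleted gene. Memo1, a regulator of cell migration, lies on the same strand and begins 3953 bases beyond the 3′ end of Dpy30, and Spast, which encodes the microtubule-severing enzyme spastin, begins 15043 bases before the outer Dpy30 start on the opposite strand. Memo1 was at 0.52 ± 1.04 (SE) and Spast at 0.10 ± 0.63 (SE). Within 1000000 bases on either side, 11 of 13 annotated protein-coding genes were in the table, 9 had an adjusted p, and 0 were called (0 under 0.05 before adjustment in the DESeq2 test of the authors). Over all genes these shares were 0.743% and 5.39%, so both counts are near the background. Signs were positive for 8 and negative for 3. Birc6, an inhibitor of apoptosis with a mean count of 1365, was the most precise, at 0.35 ± 0.31 (SE); it was named after its values were seen.

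**Figure D5:**
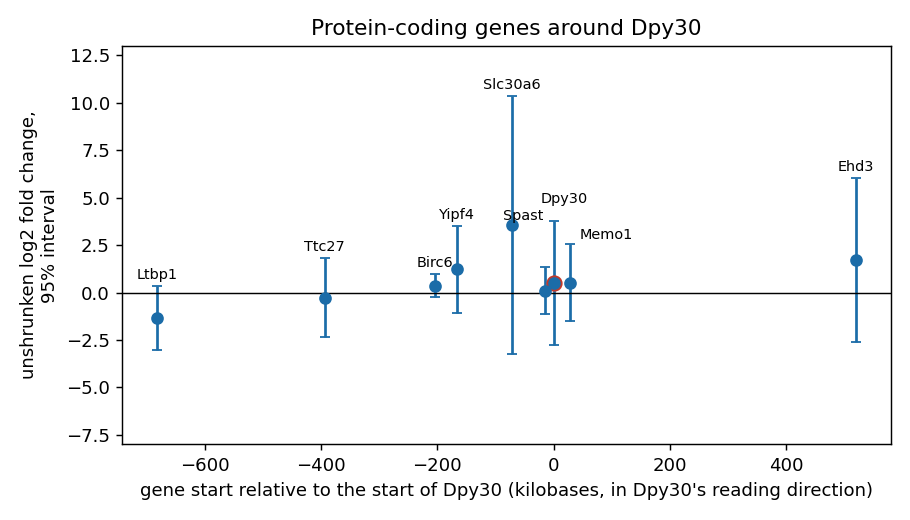
Unshrunken log2 fold changes with 95% intervals (y axis, sign as deposited) of Dpy30 (red) and of neighbouring protein-coding genes with a matched value and an SE of at most 4 (blue), by the distance of their start from the outer Dpy30 start (x axis, kilobases, in its reading direction). The intervals of Dpy30, Memo1 and Spast all cross 0, and that of Dpy30, from -2.77 to 3.78, is wider than those of both.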

How the data were processed

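The submitters' processing notes name Trimmomatic, Salmon and DESeq2 as tools, and GRCm38 and mm10 as builds. The sources used here give no version, annotation release or design formula. Rows of the genes named here carry UCSC identifiers. The deposited table holds, per gene, a mean normalized count (a signal that the authors averaged over the libraries), a log2 fold change and its error in log2 units (deposited by the authors, shrunken), and a p-value and adjusted p-value (deposited by the authors). Benjamini-Hochberg adjustment of the p-values differed from the deposited adjusted p by at most 0.000755. A call is an adjusted p under 0.05.

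Unshrunken values were computed here in Python 3.11.15 with SciPy 1.17.1 by removing a Cauchy prior of scale 0.3102, chosen as the value whose z lay closest to that of the deposited p. Among genes with a p, 84.4% had a z difference of at most 0.1, with a median difference of 0.00862. The step was tested on simulated data. The arithmetic assumes a quadratic likelihood, which does not hold for every gene with few reads.

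Planned tests on counts were replaced by the authors' results, since no library has values of its own. Named genes are all members, the catalytic subunits, the smallest p of each other pathway list, the nearest neighbours of Dpy30, and the most abundant marker of a list. Of the markers, those of acinar and endocrine cells are named by this rule; Gata1 was chosen after its values were seen. Members and lists were chosen with earlier results of these data known. Transcript lengths are medians of GENCODE M21 basic coding transcripts (GRCm38), matched by Entrez identifier for 92.6% of genes.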

Additional observations from a re-analysis of the deposited data

How the results depend on the processing

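No paired analysis was possible because the deposited table holds no value of a single library, and for the same reason no replicate could be left out. The members' count of 0 calls held under Benjamini-Hochberg adjustment over all genes with a p, over genes with a mean count of at least 10, at an adjusted p under 0.1 and at an unadjusted p under 0.05. At an unadjusted p under 0.05, 5.39% of all genes and 1 other pathway gene were called. Solving for the value from the deposited fold change and p with the same prior scale, chosen after seeing the data, moved no member by more than 0.0566. That scale had been fitted to the deposited p, which all 8 members matched, so this closeness is no independent check. When fold changes were centred on pan-epithelial markers, which adds 0.62 to every gene, Men1 was at 0.12, Wdr82 at 0.44 and Ncoa6 at 0.51, and 1 member had a negative sign in place of 4; these turns follow from the added constant. A prior scale 20% smaller gave a value for 1 member only. One 25% larger kept 4 negative signs but moved values towards 0. Dpy30 was then at 0.02, Paxip1 at 0.01, Rbbp5 at 0.08 and Men1 at -0.10, and the median of the 8 was -0.005. At that scale the deposited p was matched for 1 member only. The sizes of the unshrunken values thus depend strongly on the fitted scale. Dpy30 had the lowest mean count of the members, with an SE usual at that count. Paxip1 was less precise than other genes of its mean count, and the cause was not tested.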

Other observations

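The 100 genes with an adjusted p that lie nearest to Dpy30 in mean count span 28.8 to 30.0 and include 4 genes called by the authors' DESeq2 test. These are Gata1, a red cell transcription factor with a mean count of 29.4, almost that of Dpy30 (adjusted p = 0.0235), Rgn, a calcium-binding protein abundant in liver (adjusted p = 0.0207), Mapk8ip2, a kinase scaffold (adjusted p = 0.0191), and Ugt1a7c, a glucuronosyltransferase (adjusted p = 0.0123). The deposited sign was negative for Mapk8ip2 and positive for the other 3. For all 4 the unshrunken size could not be determined, because the reconstruction missed the deposited p by 0.54 to 2.37 in z units. They were named after their values were seen. Their deposited shrunken values were 8.09 ± 3.41 (posterior SD) for Ugt1a7c and from -0.04 to 0.05 for the other 3. At this depth, genes were thus called though the reconstruction did not match, while Dpy30 had a matched value, a wide interval and no call.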
